A study of Homo sapiens with 12 samples.

Results

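The genes described here are ATF4, the transcription factor of the amino acid stress response, and 9 genes known as its partners or targets: ATF5, DDIT3, TRIB3, CHAC1, ASNS, PCK2, STC2, VLDLR and DDIT4. They were taken by name, with earlier results of these data known, and all 10 were found among the 58735 genes of the count table. They are called the ATF4 set below. Poly(A) RNA was sequenced from TIGK cells, keratinocytes of human gingiva that were made a permanent line with telomerase. All cells were kept in 48 mM glucose, a high-glucose condition. The base medium (DMEM-SILAC Flex) held no arginine and was supplemented in every group, among others with L-glutamine, L-lysine, pituitary extract and the glucocorticoid hydrocortisone. One arm received 500 µM L-arginine (Arg). The other, the untreated control, had no arginine added, so each value of Arg against control compares medium with and without added arginine. Each arm was taken after 24 and 48 h. This gave 4 groups of 3 libraries, lettered A, B and C: control 24 h, Arg 24 h, control 48 h and Arg 48 h. All groups therefore share the line and the high glucose, and no library without high glucose was analysed here. The libraries came from wells of culture plates of a single line, and whether the letters mark separate passages is not given in the sources used here, so p-values measure the spread between these libraries only.

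ATF4 belongs to the integrated stress response. When amino acids run short, or unfolded protein builds up in the endoplasmic reticulum (ER), a kinase phosphorylates the initiation factor eIF2, most translation slows, and the ATF4 message is translated more. The ATF4 protein then pairs with other bZIP factors such as C/EBP proteins and switches on genes for amino acid synthesis, transport and tRNA charging, together with genes that restrain growth. Because ATF4 is controlled largely at translation, its RNA level does not measure its protein.

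The classical site for ATF4 paired with a C/EBP protein has the core letters TGATGNAA, read as TTNCATCA on the other strand. Promoter windows from RefSeq (GRCh38.p14), each running from 250 bases before to 50 bases after an annotated start, were searched on both strands for exact matches. A match was found in 1270 of 35116 windows, or 3.62% of all promoters, and in 2 of the 17 windows that belong to the ATF4 set, which covered all 10 genes. The 2 genes with a match were ASNS, which makes asparagine, and CHAC1, which breaks down glutathione, and the matched stretches are shown because both genes are textbook targets of this site. Capitals mark the match. The ASNS stretch lies at chr7:97872458-97872487 on the minus strand, with the match 68 to 61 bases before the start. The CHAC1 stretch lies at chr15:40953251-40953280 on the plus strand, with the match 209 to 202 bases before the start, in the orientation TTNCATCA. These starts are the RefSeq ones of the windows. The genes as listed in the count table begin farther upstream, at 97872542 (ASNS, minus strand) and 40952962 (CHAC1), so both matches lie inside the listed gene limits.
ASNS: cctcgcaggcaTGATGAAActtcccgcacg
CHAC1: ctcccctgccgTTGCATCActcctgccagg
For the other 8 genes, these letters are not in the windows searched. The ER stress element (CCAAT, any 9 bases, CCACG) occurred in 27 windows, or 0.0769% of all promoters, and in none of the windows of the ATF4 set. A match of letters is a description, not evidence that a factor binds there.

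The 12 libraries held 16542243 to 19040964 counts. All 10 keratinocyte markers (KRT5, KRT14 and others) exceeded 10 CPM in every library. The fibroblast list of 7 genes summed to 30.2 to 54.4 CPM at 24 h and to 72.7 to 102.5 CPM at 48 h. Its sum was carried by DCN (15.26 to 76.15 CPM) and the collagen gene COL1A1 (10.78 to 27.02 CPM). The collagen genes COL1A2 and COL3A1 stayed at or below 0.21 CPM. The melanocyte list summed to at most 3.06 CPM, with PMEL at 0.921 to 2.84 CPM and the enzyme TYR at 0 in every library. Immune and endothelial lists summed to at most 3.57 and 2.13 CPM. Replicate B of the 48 h control stood apart: in a comparison of raw counts over genes, where sampling noise alone gives a chi-square per degree of freedom near 1, it differed from its 2 replicates by 20.9 and 23.9 and those from each other by 3.66, and 1.55% of its counts were mitochondrial against 0.906% and 0.707%. Fold changes and calls of the set that use this library are given with and without it, while levels and means include it. The 24 h groups were uneven by the same measure, to a lesser degree. Control replicate B at 24 h differed from its 2 replicates by 12.3 and 12.5, and those from each other by 6.54. Arg replicate A at 24 h differed from its replicates by 12.4 and 10.9, and those from each other by 5.41. The mitochondrial share also differed between the arms at 24 h, at 1.20% to 1.30% in the controls and 0.624% to 0.802% with Arg, and its part in the results at 24 h was not tested. It was 1.14% to 1.31% in the Arg libraries at 48 h. These lay above 48 h controls A and C and above all Arg libraries at 24 h, and the part of the share in the 48 h calls without control replicate B and in the time differences with Arg was not tested either.

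Within a library the members differ widely in level. Per kilobase of gene length as listed in the table, DDIT4 was the most abundant in all 4 groups, followed by ATF4 and then TRIB3. In the 24 h control, DDIT4 stood at 302 ± 10.5 CPM per kb, ATF4 at 124 ± 5.68, TRIB3 at 17.9 ± 1.55 and ATF5 at 12.97 ± 0.199 (SD, n = 3). STC2 followed at 8.49 ± 1.11 CPM per kb. CHAC1, DDIT3 and PCK2 lay between 4.05 and 4.44 CPM per kb, and neighbours among these 3 were not separated by their ranges. ASNS and VLDLR came last in every group, at 0.252 and 0.18 CPM per kb in the 24 h control, where their ranges overlapped. Their raw counts were 15 to 50 and 11 to 53 in a library, so only large differences could be seen for these 2 genes.

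**Figure D1:**
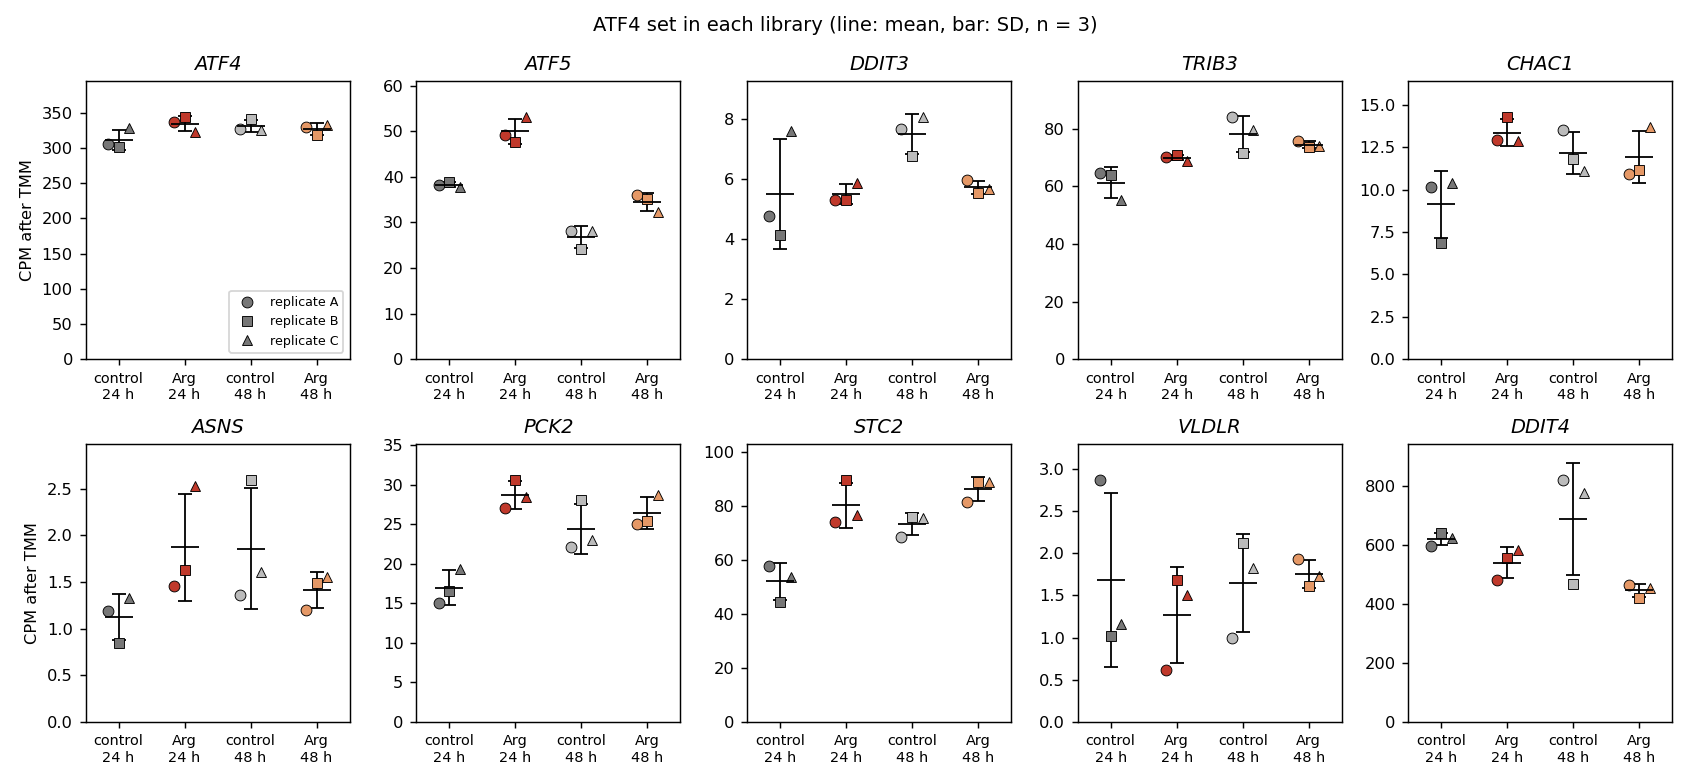
Each panel plots 1 gene of the ATF4 set, with the level in CPM after TMM scaling on the y axis and the 4 groups on the x axis. Points are libraries (circle A, square B, triangle C), the line is the mean and the bar the SD of 3 libraries. STC2, PCK2 and ATF5 are higher with Arg in every library at 24 h, ATF4 is nearly level at 302 to 344 CPM, and replicate B of the 48 h control is the low DDIT4 point at 469 CPM.

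The first question was whether Arg moved the ATF4 set after 24 h. Of the 10 genes, 3 were upregulated and none was downregulated: PCK2, a mitochondrial enzyme of gluconeogenesis, STC2, a secreted glycoprotein, and ATF5, a bZIP factor related to ATF4 (edgeR's quasi-likelihood test, adjusted p under 0.05). Over all 14279 genes tested, 2.79% were called higher and 3.84% lower. ATF4 itself did not pass the test. Groups of 3 libraries did not overlap for 7 of the 10 genes, 6 of them higher with Arg and 1, DDIT4, lower, against 26.2% of all genes tested. In bulk RNA such differences are in shares of the library, and fewer cells expressing a gene cannot be told apart from less of its RNA per cell.

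Among the transcription factors, ATF4 (22:39519695-39522685, GRCh38) was at 305, 302 and 328 CPM in control libraries A, B and C and at 337, 344 and 323 CPM in the Arg libraries. The groups overlapped at their edges, and the log2 fold change was 0.10 with a 95% interval of -0.06 to 0.26 (adjusted p = 0.448). ATF5 (19:49928702-49933935) was at 38.1, 39.0 and 37.8 CPM in the controls and at 49.3, 47.6 and 53.1 CPM with Arg. The 2 groups were well apart, with a log2 fold change of 0.38 ± 0.091 (SE, adjusted p = 0.0168). The ATF5 call was lost without control replicate A (adjusted p = 0.0815), without control replicate C (0.0789) and without Arg replicate C (0.115), while its log2 fold change stayed between 0.34 and 0.41. ATF5 lies opposite NUP62, a nuclear pore gene with 30039 counts over all libraries against 8098 for ATF5, and the strand setting of the counting is not given in the sources used here. DDIT3 (12:57516588-57521737), which encodes CHOP, the factor of prolonged stress, was at 4.77, 4.12 and 7.59 CPM in the controls and at 5.28, 5.30 and 5.86 CPM with Arg. Control replicate C lay above and the other controls below every Arg library, and no difference was detectable (95% interval of the log2 fold change -0.49 to 0.48). DDIT3 also lies opposite MARS, with 53508 counts against 1317.

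TRIB3 (20:362835-397559), a pseudokinase induced by ATF4 that feeds back on it, was at 64.8, 63.9 and 55.2 CPM in the controls and at 70.1, 70.8 and 69.0 CPM with Arg. The groups did not overlap, but the log2 fold change of 0.19 ± 0.090 did not pass (adjusted p = 0.218).

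Among the enzymes, PCK2 (14:24094053-24110598) was at 15.1, 16.5 and 19.4 CPM in the controls and at 27.0, 30.6 and 28.5 CPM with Arg. This was the largest called difference of the set, a log2 fold change of 0.76 ± 0.12 or 1.69-fold (adjusted p = 0.00102), and the call held when any 1 library was left out. CHAC1 (15:40952962-40956519) was at 10.2, 6.83 and 10.4 CPM in the controls and at 12.9, 14.3 and 12.9 CPM with Arg. The groups did not overlap, and the log2 fold change of 0.55 ± 0.17 narrowly missed the threshold (adjusted p = 0.0616). It passed in DESeq2 (adjusted p = 0.0426), with no filter on low counts (0.0255) and in 1 model of all 12 libraries (0.0473), and in none of the fits that left out 1 library. ASNS (7:97852118-97872542) was at 1.19, 0.847 and 1.33 CPM in the controls and at 1.46, 1.63 and 2.53 CPM with Arg. Every Arg library was above every control, but at these counts the log2 fold change of 0.73 ± 0.38 had an adjusted p of 0.263. The annotation holds a second gene over ASNS on the same strand, AC079781.5, with 3 counts, and how reads that fit both were counted is not given in the sources used here.

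STC2 (5:173314713-173329503), which binds and inhibits the protease PAPP-A and is induced by ER stress, was at 57.9, 44.6 and 53.7 CPM in the controls. It was at 74.2, 89.6 and 76.8 CPM with Arg. All Arg libraries were above all controls, with a log2 fold change of 0.62 ± 0.11 or 1.54-fold (adjusted p = 0.00203), and this call also held when any 1 library was left out. VLDLR (9:2621834-2660053), a receptor for lipoproteins and reelin, ranged from 1.02 to 2.87 CPM in the controls and from 0.618 to 1.69 CPM with Arg. The groups overlapped, and the log2 fold change of -0.41 ± 0.46 did not pass (adjusted p = 0.644).

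DDIT4 (10:72273920-72276036), also named REDD1, restrains mTORC1 and responds to hypoxia and glucocorticoids as well as to ATF4. It was at 598, 640 and 625 CPM in the controls and at 482, 556 and 582 CPM with Arg. Each Arg library was below each control, opposite to the direction of PCK2, STC2 and ATF5, and the log2 fold change of -0.20 ± 0.081 did not pass (adjusted p = 0.141).

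After 48 h, none of the 10 genes was called by edgeR with all libraries, where 0% of the 14562 genes tested were called higher and 0.117% lower. DESeq2 also called 0 of the 10, against 1.26% of all genes in either direction. At an unadjusted p under 0.05, 4 of the 10 passed (DDIT4, ATF5, STC2 and DDIT3), against 13.4% of all genes. The groups did not overlap for those 4, with ATF5 and STC2 higher and DDIT4 and DDIT3 lower in every Arg library, against 17.1% of all genes. Without control replicate B, 3 genes were called: STC2 and ATF5 were upregulated and DDIT4 was downregulated, where 7.76% of all genes were called higher and 8.17% lower.

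DDIT4 showed what that library decides. It was at 821, 469 and 776 CPM in the 48 h controls A, B and C and at 464, 421 and 454 CPM with Arg. Control replicate B thus lay beside the Arg libraries rather than beside its own group. The log2 fold change was -0.63 ± 0.15 with all libraries (adjusted p = 0.148) and -0.84 ± 0.056 without control replicate B (adjusted p = 3.35e-10). With no library left out, DDIT4 was called lower in 3 of 7 alternatives, among them a model of all 12 libraries (adjusted p = 0.0492) and no filter on low counts.

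ATF5 was at 28.1, 24.1 and 28.2 CPM in the 48 h controls and at 36.1, 35.1 and 32.2 CPM with Arg. The log2 fold change was 0.36 ± 0.099 (adjusted p = 0.177), and 0.29 ± 0.093 without control replicate B (adjusted p = 0.0361). At both times, then, no control library reached the ATF5 level of any Arg library. STC2 was at 68.6, 75.8 and 75.7 CPM in the 48 h controls and at 81.3, 88.8 and 88.8 CPM with Arg. Its log2 fold change was 0.23 ± 0.073 (adjusted p = 0.219), and 0.26 ± 0.071 without control replicate B (adjusted p = 0.015). DDIT3 was at 7.66, 6.74 and 8.04 CPM in the controls and at 5.95, 5.54 and 5.64 CPM with Arg. It did not pass with all libraries (log2 fold change -0.39 ± 0.17, adjusted p = 0.343) or without control replicate B (-0.46 ± 0.18, adjusted p = 0.0918).

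With all libraries, the other 6 genes did not separate at 48 h. Without control replicate B, PCK2 was higher and TRIB3 lower in every Arg library, and neither was called. PCK2 was at 22.1, 28.0 and 23.0 CPM in the controls and at 25.0, 25.4 and 28.7 CPM with Arg, and the groups overlapped through control replicate B. Its log2 fold change was 0.11 ± 0.12 with that library and 0.22 ± 0.10 without it (adjusted p = 0.712 and 0.151). ATF4 was at 326 to 342 CPM in the controls and at 318 to 333 CPM with Arg, a log2 fold change of -0.02 with a 95% interval of -0.15 to 0.10, and 0.0012 without control replicate B. Over all 12 libraries its log2 level varied by 0.06 about its mean (root mean square), the least of the 10 genes. CHAC1 was at 13.5, 11.8 and 11.1 CPM in the controls and at 10.95, 11.13 and 13.7 CPM with Arg, with overlap. TRIB3 was at 84.0, 71.6 and 79.5 CPM in the controls and at 75.9, 73.7 and 74.1 CPM with Arg. ASNS ranged from 1.36 to 2.59 CPM in the controls and from 1.20 to 1.56 CPM with Arg, and VLDLR from 0.997 to 2.13 and from 1.61 to 1.93 CPM. With and without control replicate B, the log2 fold change was -0.40 ± 0.36 and -0.08 ± 0.42 for ASNS, so that most of the ASNS difference rested on that library. It was 0.09 ± 0.36 and 0.32 ± 0.41 for VLDLR and -0.03 ± 0.15 and -0.05 ± 0.15 for CHAC1. For TRIB3 it was -0.07 ± 0.075 and -0.13 ± 0.067, and none of these passed either way.

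**Figure D2:**
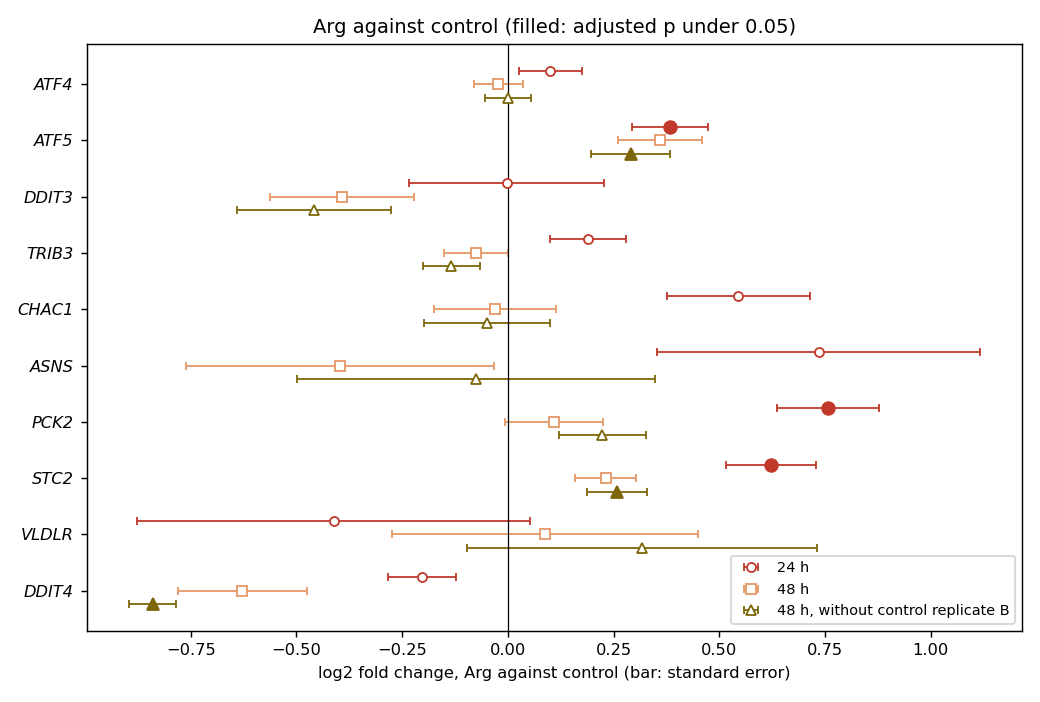
The x axis is the log2 fold change of Arg against the untreated control and the y axis lists the ATF4 set. Circles are 24 h, squares 48 h and triangles 48 h without control replicate B, bars are standard errors, and filled symbols have an adjusted p under 0.05. PCK2, STC2 and ATF5 are filled at 24 h, no square is filled, and ATF5, STC2 and DDIT4 are filled among the triangles.

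Whether the Arg difference itself changed between the times was tested as an interaction over all 12 libraries. None of the 10 genes passed in edgeR, where 0.0132% of 15148 genes did, and none in DESeq2, where 0.152% did. At an unadjusted p under 0.05, 6 of the 10 were lower, meaning that Arg against control was less positive or more negative at 48 h, and 3.80% of all genes were lower by the same rule. These were PCK2 (-0.65 ± 0.17, adjusted p = 0.322), STC2 (-0.39 ± 0.14), CHAC1 (-0.57 ± 0.23), TRIB3 (-0.26 ± 0.12), ASNS (-1.13 ± 0.52) and DDIT4 (-0.42 ± 0.19). For ATF5 the difference between the times was -0.02 ± 0.13 on the log2 scale, with a 95% interval of -0.29 to 0.25. Without 48 h control replicate B, DDIT4 alone was called (-0.64 ± 0.10, adjusted p = 0.00252), where 0.297% of all genes were. At an unadjusted p under 0.05, 5 of the 10 were then lower, against 4.67% of all genes, and ASNS (-0.81 ± 0.54) no longer passed. The values without that library were -0.53 ± 0.16 for PCK2, -0.37 ± 0.14 for STC2, -0.59 ± 0.23 for CHAC1, -0.32 ± 0.11 for TRIB3 and -0.09 ± 0.13 for ATF5. So loss of the 24 h difference was not shown for any single upregulated gene.

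The 10 genes were also compared between 24 and 48 h in each arm. The comparisons below share their libraries with those above: a low 24 h control enters both the Arg difference at 24 h and the time difference of the control, so the values stand side by side and are not independent. Between 24 and 48 h in the untreated control, 3 genes rose (STC2, PCK2 and TRIB3) and 1 fell (ATF5), where 9.90% of all genes were called higher and 10% lower. With Arg, no gene of the set rose and 2 fell (ATF5 and DDIT4), where 14.3% of all genes were called higher and 14.0% lower.

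STC2 rose in the control from a mean of 52.0 ± 6.82 to 73.4 ± 4.10 CPM (SD, n = 3), a log2 fold change of 0.50 ± 0.10 (SE, adjusted p = 0.00758). With Arg its means were 80.2 ± 8.26 and 86.3 ± 4.33 CPM, and the log2 fold change of 0.11 ± 0.083 did not pass. PCK2 rose in the control from 16.97 ± 2.19 to 24.4 ± 3.19 CPM, a log2 fold change of 0.53 ± 0.14 (adjusted p = 0.0203). The PCK2 call was lost without 24 h control replicate A (adjusted p = 0.108). With Arg its means were 28.7 ± 1.78 and 26.4 ± 2.02 CPM, and the log2 fold change was -0.12 ± 0.099. By their means, both genes thus stood at 48 h in the control between the 24 h control and Arg at 24 h. The libraries of the 48 h control and of Arg at 24 h overlapped. STC2 reached 75.8 CPM in the former and was as low as 74.2 CPM in the latter, and PCK2 28.0 and 27.0 CPM. This pair of groups was not tested. TRIB3 rose in the control by 0.36 ± 0.094 on the log2 scale (adjusted p = 0.0212). That call was lost without 24 h control replicate A (adjusted p = 0.0585) or C (0.112) and without 48 h control replicate A (0.0885) or C (0.0582).

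ATF5 fell with time in both arms, from 38.3 ± 0.588 to 26.8 ± 2.33 CPM in the control and from 50.01 ± 2.80 to 34.5 ± 2.04 CPM with Arg. The log2 fold changes were -0.51 ± 0.10 (adjusted p = 0.00614) and -0.54 ± 0.088 (adjusted p = 0.000144). Without 48 h control replicate B, the control time differences called above stayed called, at 0.47 ± 0.11 for STC2 (adjusted p = 0.00951), 0.41 ± 0.13 for PCK2 (0.0458), 0.42 ± 0.091 for TRIB3 (0.008) and -0.44 ± 0.096 for ATF5 (0.00776). DDIT4 fell with time in the Arg arm, from 540 ± 52.0 to 446 ± 22.8 CPM, a log2 fold change of -0.27 ± 0.073 (adjusted p = 0.0083). This call was lost without 24 h Arg replicate C (adjusted p = 0.0547), without 48 h Arg replicate B (0.0762) and in 1 model of all 12 libraries (0.145). In the control, DDIT4 was at 621 ± 21.6 and 689 ± 191 CPM with all libraries, with no call. Without 48 h control replicate B it rose by 0.37 ± 0.068 (adjusted p = 0.00348), and 4 genes were then called higher and 1 lower, where 7.81% and 8.60% of all genes were. The summed fibroblast markers were higher at 48 h than at 24 h in both arms, as given above, and their part in these time differences was not tested.

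**Figure D3:**
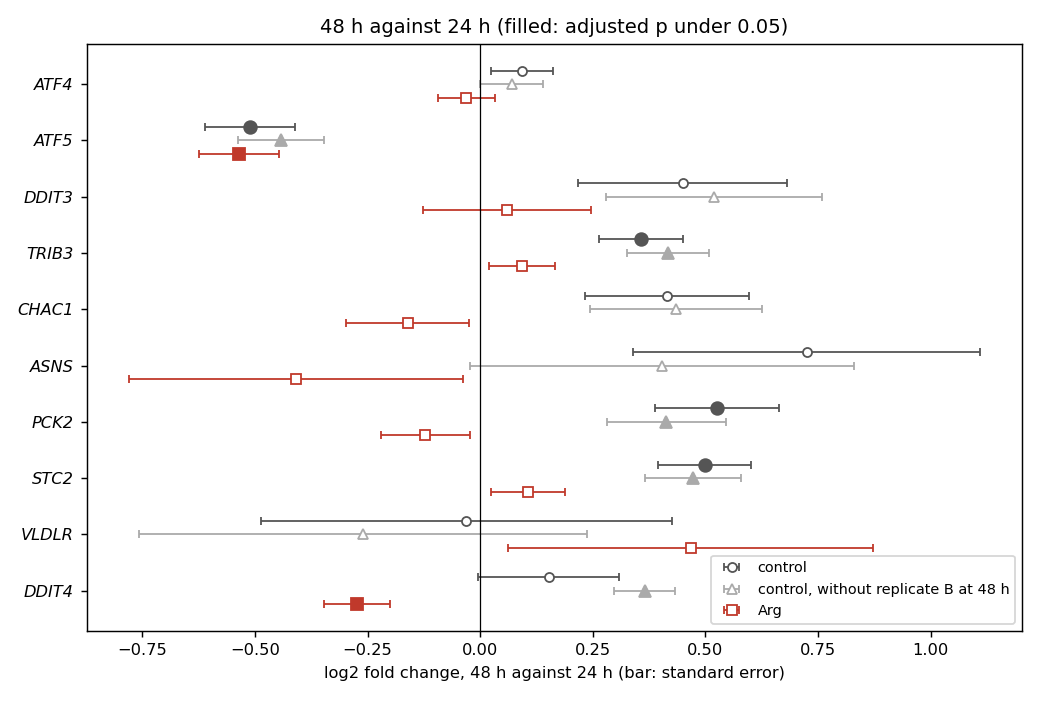
The x axis is the log2 fold change of 48 h against 24 h and the y axis lists the ATF4 set. Circles are the control, triangles the control without replicate B at 48 h and squares the Arg arm, bars are standard errors, and filled symbols have an adjusted p under 0.05. ATF5 is lower in both arms, STC2, PCK2 and TRIB3 are higher in the control, and DDIT4 is lower in the Arg arm and, among the triangles, higher in the control.

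The rest of the pathway was read from lists of genes chosen by name. The counts for Arg against control stand against these shares over all genes tested. At 24 h, 2.79% were called higher and 3.84% lower. At 48 h the shares were 0% and 0.117% with all libraries, and 7.76% and 8.17% without control replicate B. Upstream, of the 16 kinases, subunits and regulators of eIF2 none passed for Arg against control at either time, in edgeR with all libraries. Their median log2 fold changes were -0.04 at 24 h and -0.01 at 48 h. Without 48 h control replicate B, 2 were higher and 3 lower at 48 h. The 4 with the smallest p encode subunits of eIF2 or of its exchange factor eIF2B: EIF2B4 (-0.38) and EIF2B2 (-0.31) were lower and EIF2S3 (0.18) and EIF2B1 (0.24) higher. For EIF2B4, EIF2B2 and EIF2B1, the left-out control library lay within the range of the Arg libraries. For EIF2S3 it lay above them, at 287 CPM against 275 to 282 CPM.

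Of 36 other ATF4 or CHOP targets tested at 24 h, 2 were higher and none lower with Arg, and the median log2 fold change was 0.10 against 0.00 over all genes tested. The 2 were SLC7A11, the cystine importer of glutathione synthesis, and EPRS, a tRNA synthetase. SLC7A11 was at 109, 92.7 and 127 CPM in the controls and at 185, 154 and 148 CPM with Arg, a log2 fold change of 0.57 ± 0.11 (adjusted p = 0.00474). EPRS was at 263 to 291 CPM in the controls and at 333 to 334 CPM with Arg, a log2 fold change of 0.26 ± 0.073. The serine synthesis genes, the other tRNA synthetases and the stress factors NUPR1, GDF15 and SESN2 of this list were not called at 24 h. That none was lower holds for this list only. ATF3 and VEGFA, which are also induced by ATF4, were placed in other lists below, and both were called lower with Arg at 24 h. At 48 h none of the 36 passed with all libraries. Without control replicate B, 4 were higher and 3 lower, where 7.76% and 8.17% of all genes were called. SLC7A11 (0.66) and the arginine importer SLC7A1 (0.37) were among the higher genes. The amino acid carriers SLC3A2 (-0.32) and SLC38A2 (-0.31) were among the lower ones. For SLC7A1, control replicate B was at 593 CPM, the other controls at 451 and 431 CPM and the Arg libraries at 568 to 573 CPM. For SLC3A2, it was at 1302 CPM, the other controls at 1709 and 1697 CPM and the Arg libraries at 1313 to 1452 CPM. The left-out library thus lay beyond the Arg libraries for these 2 genes. For SLC7A11 and SLC38A2 it lay between the other controls and the Arg libraries.

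The bZIP factors that can pair with ATF4 or its partners were lower at 24 h for 4 of 9 genes and higher for none. FOS, an immediate early factor, was at 196, 127 and 163 CPM in the controls and at 37.4, 36.1 and 43.5 CPM with Arg, a log2 fold change of -2.06 ± 0.13 (adjusted p = 4.26e-08). ATF3, a stress factor that is itself a target of ATF4, was at 25.9, 13.8 and 26.9 CPM in the controls and at 8.82, 7.51 and 9.08 CPM with Arg, a log2 fold change of -1.39 ± 0.20. JUN (-0.48) and FOSL1 (-0.78) were lower too, while the C/EBP genes of the list were not called. FOSL1 was at 150, 79.2 and 145 CPM in the controls and at 78.6, 79.4 and 59.7 CPM with Arg. Its groups thus overlapped through control replicate B. At 48 h FOS was the only one of the 9 called with all libraries, at a log2 fold change of -0.94 ± 0.088, and its difference between the times passed as well (1.11 ± 0.17, adjusted p = 0.0229, and 1.10 ± 0.18, adjusted p = 0.00224 without control replicate B). Without control replicate B, 3 of the 9 were lower at 48 h and none higher: FOS (-0.95), FOSL1 (-0.39) and CEBPB (-0.27). The left-out library was beside the other controls for FOS and within the Arg range for CEBPB. For FOSL1 it was below the Arg libraries, at 24.9 CPM against 30.1 to 36.6 CPM.

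Lists that share genes or inducers with the set were read in the same way, against the same shares over all genes. Of 17 ER folding genes, none was higher and 2 were lower with Arg at 24 h, EDEM1 (-0.49) and HERPUD1 (-0.32), both of ER-associated degradation. Of 7 hypoxia genes tested, none was higher and 2 were lower, VEGFA (-0.97 ± 0.10) and BNIP3 (-0.49 ± 0.086). VEGFA is also induced by ATF4. Of 5 glucocorticoid genes 1 was higher, TSC22D3, at 29.9, 49.9 and 42.4 CPM in the controls and 70.1, 71.1 and 77.0 CPM with Arg (log2 fold change 0.84 ± 0.13). Of 12 relatives of the set, 5 were tested and 2 were lower, TRIB1 (-0.55) and TRIB2 (-0.86), while TRIB3 was not called. At 48 h none of these 4 lists held a called gene with all libraries. Without control replicate B, VEGFA (-0.67) was lower, and TSC22D3 (0.52) and the hypoxia gene NDRG1 (0.44) were higher. The ER folding list then held 3 higher genes, CALR (0.33), SEL1L (0.22) and CRELD2 (0.43), and 1 lower gene, HSPA5 (-0.16). Among the relatives LRP8 (0.37), a receptor close to VLDLR, was higher. NDRG1 was at 295.5, 597 and 278 CPM in 48 h controls A, B and C and at 500, 366 and 299 CPM with Arg. Control replicate B, left out here, was thus above every Arg library for NDRG1, and also for SEL1L (102.2 against 96.8 to 102.1 CPM). It lay within the Arg range for TSC22D3 and HSPA5. For VEGFA, CALR, CRELD2 and LRP8 it lay outside that range, on the side of the other controls.

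**Figure D4:**
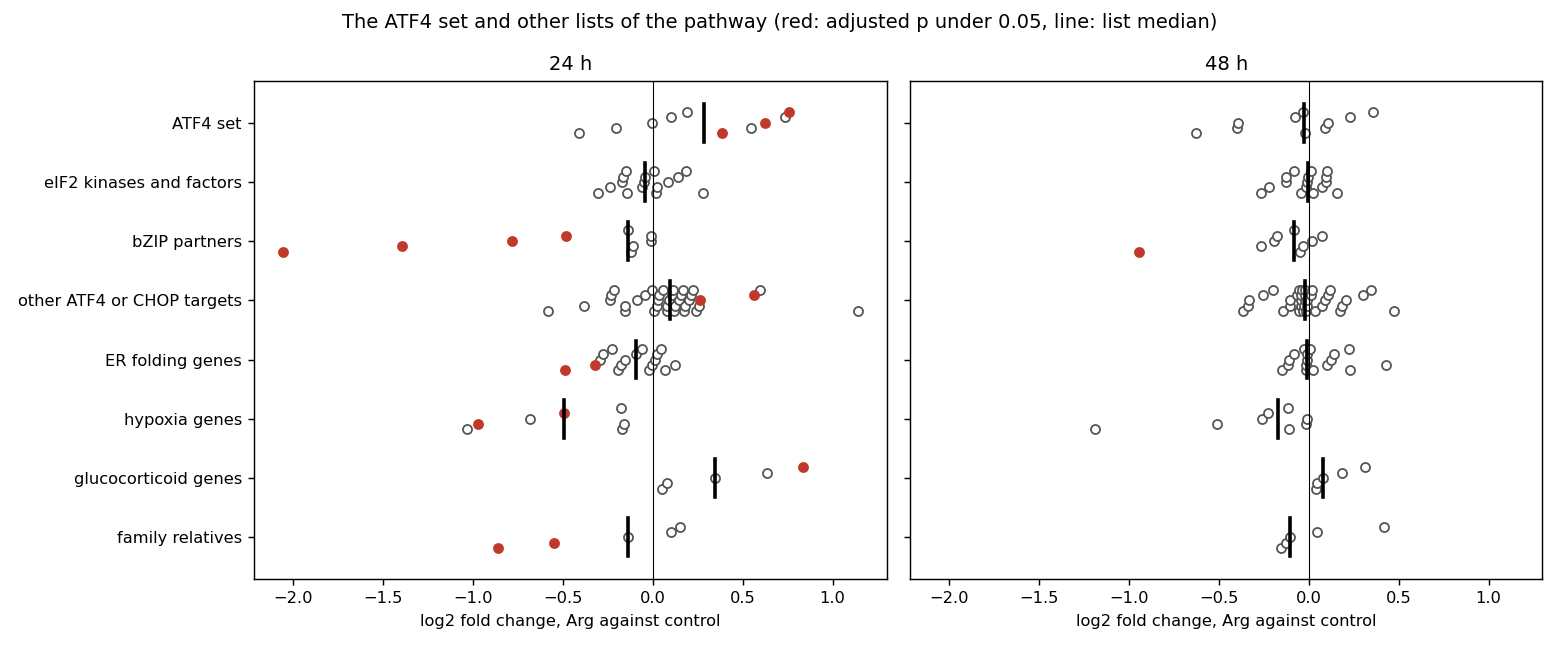
The x axis is the log2 fold change of Arg against control at 24 h (left) and 48 h (right), and each line of points is a list, with the ATF4 set at the top. Points are genes tested, red points have an adjusted p under 0.05 and the black bar is the list's median. At 24 h the red points lie to the right for the ATF4 set, the list of other targets and the glucocorticoid list and to the left for the bZIP, ER folding, hypoxia and relatives lists, and at 48 h FOS is the only red point. ATF3 and VEGFA, also induced by ATF4, are plotted in the bZIP and hypoxia lists.

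With time, 10 of the 36 other targets were higher and 5 lower in the control, and 11 were higher and 8 lower with Arg. Over all genes, 9.90% were called higher and 10% lower in the control, and 14.3% and 14.0% with Arg. Without 48 h control replicate B the counts in the control were again 10 higher and 5 lower, where 7.81% and 8.60% of all genes were called. NUPR1, a small chromatin protein of the stress response, rose the most on this list among the genes named, by 2.21 ± 0.20 in the control and 2.13 ± 0.16 with Arg on the log2 scale. In the control, GDF15, a secreted stress signal, rose by 1.28 ± 0.26, PHGDH, the first enzyme of serine synthesis, by 0.59 ± 0.081 and EPRS by 0.37 ± 0.069. Without that replicate these 4 values in the control were 1.99 for NUPR1, 1.08 for GDF15, 0.59 for PHGDH and 0.37 for EPRS, and all 4 passed. With Arg, the leucine importer SLC7A5 (-0.53 ± 0.067) and its partner chain SLC3A2 (-0.48 ± 0.066) fell, as did SLC38A2 (-0.35 ± 0.061). All 5 glucocorticoid genes rose with time in both arms, led by ZBTB16 (1.84 in the control and 1.39 with Arg), and all 5 did in the control without replicate B as well. So called targets within the list went both ways with time, as called members of the ATF4 set did in the control, and as genes did over all tested. Of the 16 eIF2 genes, 1 rose and 2 fell in the control and 1 rose and 5 fell with Arg, and EIF2AK3, the eIF2 kinase of ER stress, rose in both arms (0.48 and 0.45). The eIF2 counts in the control were the same without replicate B. Of the 17 ER folding genes none was called with time in the control by edgeR, with or without replicate B, and 4 rose with Arg.

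For the members with calls, the genes of most similar profile over the 12 libraries were found by the root mean square difference of log2 CPM, each gene centred on its own mean, among 15147 genes. For PCK2 these were E2F2 (0.09), TRIM16 (0.12) and SRRM1 (0.12), where PCK2 itself varied by 0.31 about its mean. For STC2 they were HNRNPH1 (0.10), UNC13D (0.11) and SHISA9 (0.12), and for ATF5 SPC25 (0.12), CLN6 (0.14) and CDCA5 (0.14), where these 2 members varied by 0.30 and 0.33. DDIT4, which varied by 0.30, was nearest to IGFBP7 (0.10), BCAS4 (0.10) and SH3TC1 (0.10). None of these nearest genes belongs to the set, and the members were not each other's nearest profile. The values describe likeness over libraries that share groups and scaling, with no test.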

How the data were processed

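Poly(A) RNA of 12 libraries (4 groups of 3) was sequenced. As the study's methods state, the authors trimmed reads with fastp, mapped them with STAR (GRCh38/hg38) and assigned them to genes with featureCounts. The deposited values are raw counts per gene, with gene length and position columns. Tool versions, annotation release and strand setting are not given in the sources used here. All 12 count columns were used and 0 were left out.

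Each pair of groups was fitted on its own libraries, and the interaction on all 12, with edgeR 4.0.16 (quasi-likelihood test, TMM scaling, filterByExpr) in R 4.3.3. Benjamini-Hochberg adjustment ran over all genes tested, and calls were made at an adjusted p under 0.05. All 10 genes of the set passed the filter in every comparison. CPM are read counts scaled by TMM library size over the 12 libraries, and log2 CPM used a prior count of 2. Intervals are 95% intervals of the fit. The scripts were tested on simulated data. Alternatives were DESeq2 1.42.0, other scalings and filters, 1 model of all libraries, the replicate letter as a block, and leaving out each library in turn. With 3 against 3 libraries a permutation test cannot go below p = 0.1, so none was used.

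The members and lists were chosen with earlier results of these data known. All 10 members are named, and from each other list at most 4 called genes with the smallest p in each comparison. Genes of a list named as not called were chosen after their values were seen.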

Additional observations from a re-analysis of the deposited data

How the results depend on the processing

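Of 700 fits of a gene of the ATF4 set under an alternative, 656 kept their direction and their side of the threshold, 11 lost a call, 12 gained one and 21 changed sign. The DESeq2 interaction fits of DDIT3, ASNS and VLDLR, which had no adjusted p, kept their direction and are counted among the 656. Every change of sign was in a difference that was not called. With library size only, the log2 fold change of DDIT3 at 24 h was 0.0067, that of VLDLR with time in the control 0.033 and that of ATF4 with time under Arg 0.026. With the replicate block the first 2 were 0.031 and 0.051. Leaving out 1 library gave, for Arg against control at 24 h, -0.17 to 0.30 for DDIT3 and -0.67 to 0.22 for VLDLR. At 48 h it gave -0.037 to 0.0012 for ATF4, -0.14 to 0.054 for CHAC1 and -0.17 to 0.32 for VLDLR. With time in the control it gave -0.30 to 0.60 for VLDLR, and for the interaction -0.13 to 0.77 for VLDLR and -0.093 to 0.025 for ATF5.

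Counts of called members changed at 48 h, where 1 gene (DDIT4) was lower with no filter on low counts, in 1 model of all 12 libraries and with the replicate block (log2 fold change -0.59, adjusted p = 0.00505), against 0 in the fit reported. No filter also called 1 gene (DDIT4) lower for the interaction, and the model of all 12 libraries called 1 rather than 2 lower with time under Arg. Leaving out 1 library at 48 h gave 0 to 2 higher and 0 to 1 lower, and with time 1 to 4 higher in the control (1 without 24 h control replicate A, 4 without 48 h control replicate B) and 1 to 2 lower with Arg (1 without 24 h replicate C or 48 h replicate B). For the interaction it gave 0 to 1 lower.

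Over all genes at 48 h, against 0 higher and 17 lower, DESeq2 called 40 and 144, no filter 199 and 374, the model of all 12 libraries 4 and 37, and the replicate block 43 and 141. Leaving out 1 library gave 0 to 1152 higher and 5 to 1213 lower, both highest without control replicate B. For the interaction, against 2 higher and 0 lower, DESeq2 called 10 and 13 and no filter 51 and 37, and leaving out 1 library gave 0 to 28 and 0 to 18. At 24 h, against 398 higher and 549 lower, leaving out 1 library gave 126 to 647 and 233 to 882, lowest without control replicate A and highest without control replicate B. The same 2 libraries set the ends with time in the control, at 422 to 1585 higher and 406 to 1719 lower against 1431 and 1451. With library size only the split with time was 1845 higher and 1008 lower in the control, and 2568 and 1453 with Arg against 2060 and 2012. The causes were not tested.

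The letters A, B and C do not pair the libraries by the check made: deviations of libraries with the same letter correlated across genes at -0.06 to 0.13, and between 0 and 4 of the 6 libraries of a comparison correlated best with their own letter, so the replicate block is an alternative only. For the interaction, DESeq2 gave DDIT3, ASNS and VLDLR no adjusted p. ASNS and VLDLR, at 11 to 53 counts in a library, are limited by depth. With 3 libraries a group, 1 library can decide a call, as replicate B of the 48 h control does for DDIT4.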
